A study of Mus musculus with 7 samples.

Results

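The D-type cyclins and the proteins that work with or against them in the G1 phase of the cell cycle were followed in bone marrow stem and progenitor cells of the mouse. The genes were taken by symbol from a fixed list, and all 9 of 9 were found among the 32285 genes counted in each library: Ccnd1, Ccnd2 and Ccnd3, Cdk4 and Cdk6, Cdkn1a and Cdkn1b, and Cdkn2c and Cdkn2d. The data were single-cell RNA libraries of LSK cells, which carry no mature lineage markers and were sorted for Sca-1 and cKit. Tags from the 3′ ends of transcripts were counted as unique molecular identifiers (UMIs) per gene and cell. There were 3 libraries labelled knockout (genotype B4-/- on a 129S1/C57Bl/6 background, described as a full knockout of B4galt1) and 4 labelled wild type (129S1/C57Bl/6). The labels give no age, sex or treatment, and nothing says that the libraries came from separate animals, so p-values measure the spread between these libraries.

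A D-type cyclin binds the kinase CDK4 or CDK6, and the complex phosphorylates the retinoblastoma protein, which releases E2F factors and lets a cell pass from G1 into DNA synthesis. The INK4 proteins p18 (Cdkn2c) and p19 (Cdkn2d) bind CDK4 and CDK6 and block them, while the Cip/Kip proteins p21 (Cdkn1a) and p27 (Cdkn1b) bind a wider range of cyclin-kinase complexes. In blood-forming tissue these genes are studied because most hematopoietic stem cells rest outside the cycle and their progeny divide rapidly.

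The starts of 4 of the genes are shown because these pairs moved together in the counts: Cdk4 and Cdk6 were higher in cycling cells and lower in stem-gated cells, and the INK4 genes Cdkn2c and Cdkn2d were higher in mitosis-high than in S-high cells. Each run covers 250 bases before to 50 after a gene start of RefSeq on build GRCm38.p6, written 5′ to 3′ on the gene's own strand. Capitals mark CACGTG (an E-box, the palindrome bound by MYC-type factors) in the first pair and GGGCGG, on either strand (a GC box, the site of SP1-type factors), in the second. The Cdk4 window lies at chr10:127063285-127063584 on the plus strand and the Cdk6 window at chr5:3343643-3343942 on the plus strand. The Cdkn2c window lies at chr4:109666707-109667006 and the Cdkn2d window at chr9:21291160-21291459, both on the minus strand.
Cdk4: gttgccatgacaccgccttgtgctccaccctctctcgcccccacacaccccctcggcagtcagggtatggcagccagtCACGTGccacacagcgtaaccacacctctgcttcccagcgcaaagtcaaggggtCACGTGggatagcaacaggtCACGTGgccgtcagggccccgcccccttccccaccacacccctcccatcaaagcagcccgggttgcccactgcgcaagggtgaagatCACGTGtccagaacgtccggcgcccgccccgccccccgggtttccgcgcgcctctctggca
Cdk6: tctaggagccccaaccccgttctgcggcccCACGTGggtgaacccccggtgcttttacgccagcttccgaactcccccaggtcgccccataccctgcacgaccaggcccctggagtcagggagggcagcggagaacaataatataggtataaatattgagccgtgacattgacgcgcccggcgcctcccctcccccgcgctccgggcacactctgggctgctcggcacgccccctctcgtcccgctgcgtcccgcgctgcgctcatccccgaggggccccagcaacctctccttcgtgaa
Cdkn2c: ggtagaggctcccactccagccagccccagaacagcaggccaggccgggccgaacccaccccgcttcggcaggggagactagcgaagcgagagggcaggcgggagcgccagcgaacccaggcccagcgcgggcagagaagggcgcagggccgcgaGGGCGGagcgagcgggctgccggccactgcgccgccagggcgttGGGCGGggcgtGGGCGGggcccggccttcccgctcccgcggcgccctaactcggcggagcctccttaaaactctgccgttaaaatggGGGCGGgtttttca
Cdkn2d: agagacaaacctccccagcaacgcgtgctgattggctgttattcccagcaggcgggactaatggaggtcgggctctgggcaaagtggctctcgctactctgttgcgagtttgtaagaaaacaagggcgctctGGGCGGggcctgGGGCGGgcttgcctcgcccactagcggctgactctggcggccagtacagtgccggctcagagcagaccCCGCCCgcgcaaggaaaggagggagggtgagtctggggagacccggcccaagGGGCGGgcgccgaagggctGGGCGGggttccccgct

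The Cdk4 window held 4 E-boxes and the Cdk6 window held 1. An E-box stood in 7.15% of the 32851 windows of the table, and 8 windows (0.0244%) held 4 or more. A GC box was common, in 35.7% of windows. The printed Cdkn2c window held 4 and the Cdkn2d window 5, and 4 or more stood in 5.49% of windows. It was not particular to that pair: the Cdk4 window held 3, not marked above, and a second Cdkn2c start, chr4:109665323-109665622, held 0 and 1 E-box. Both strands were also searched for TTTGAA (the cell cycle homology element of late-cycle promoters), TTTCCCGC and TTTGGCGC (E2F sites). These stood in 17.9%, 1.07% and 0.514% of all windows and in 0 of the windows of the 7 genes with an entry. Matches of different motifs shared 0 bases in these windows. A match is a run of letters and not a measured binding site. Ccnd1 and Ccnd2 had no entry.

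The genes lie on 7 chromosomes of the mm10 annotation (GENCODE vM21). On chromosome 6 are Ccnd2 (127125162 to 127152193, minus strand) and Cdkn1b (134920401 to 134925513, plus strand). Chromosome 17 holds Cdkn1a (29090976 to 29100727) and Ccnd3 (47505051 to 47599691), both on the plus strand. Ccnd1 lies on chromosome 7 (144929931 to 144939925, minus strand), Cdk4 on chromosome 10 (127063534 to 127067920, plus), Cdk6 on chromosome 5 (3341485 to 3531008, plus), Cdkn2c on chromosome 4 (109660876 to 109667189, minus) and Cdkn2d on chromosome 9 (21288410 to 21291407, minus). Other genes of the annotation overlap Ccnd1 (LTO1), Ccnd2 (Gm43126 and 9330179D12Rik), Ccnd3 (Bysl), Cdk4 (Tspan31), Cdk6 (Gm17590 and Gm42435) and Cdkn1a (AC167363.2), each on the opposite strand. Ccnd3 has a named pseudogene, Ccnd3-ps. Whether the counting used strand is not given in the sources used here, so reads shared with these genes cannot be told apart.

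Totals ran from 14970791 to 89747946 UMIs per library. Cells with at least 1000 UMIs, at least 500 genes and at most 10% mitochondrial UMIs were kept, which left 3072, 1725 and 6855 knockout-labelled and 1244, 1172, 1500 and 8862 wild-type-labelled cells. The libraries fell into 2 lists by the opening bases of their barcodes. List A holds knockout replicates 1 and 2 and wild-type replicates 1 to 3, and list B holds knockout replicate 3 and wild-type replicate 4. The lists stood apart in kept barcodes (32.4% to 49.9% against 98.3% and 96.2%), and in 4 of the 9 genes without overlap: Cdk6 was 2.65-fold and Cdkn2c 1.77-fold higher in list A on average, Cdk4 2.15-fold and Cdkn2d 1.80-fold higher in list B. The share of all genes that stood apart in this way was not counted, so the 4 are not read as particular to this family. Because the lists differed, label differences were fitted with the list as a covariate, and cycle and gate differences within each library. Knockout replicate 3 and wild-type replicate 4 shared 68 barcodes and every other pair 0 to 2. Levels are given as CPM, the UMIs of a gene per 1000000 UMIs of the summed cells. B4galt1 was at 51.2, 55.6 and 27.4 CPM in the knockout-labelled libraries and 56.4, 69.2, 56.7 and 34.8 in the wild-type-labelled ones. The ranges overlapped. The labels do not give the deleted part of the gene, so the tags may not check the knockout, and groups are named by label.

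Cells were placed by counts of other genes, none of them among the 9. The stem gate asked for at least 2 of 5 stem cell genes (Procr, Fgd5, Hlf, Mecom, Slamf1) and 0 UMIs of Flt3, Cd48 and Dntt. The lymphoid gate asked for at least 2 UMIs of Dntt, the granule gate for Mpo, Elane, Prtn3 and Ctsg together at 20 per 10000 UMIs or more, and the Flt3 gate for at least 2 UMIs of Flt3 with 0 of Dntt. The stem, lymphoid and Flt3 gates also asked for those granule genes at under 5 per 10000, and the Flt3 gate for at most 1 stem cell gene. The megakaryocyte gate asked for at least 2 of Pf4, Gp9, Gp1bb, Gp5 and Itga2b with at least 3 UMIs in all. A cell went to the first gate it met in the order megakaryocyte, granule, lymphoid, stem and Flt3. Cells meeting no gate are called ungated. Check genes kept out of the gates were highest in their own gate for 7 of 7 stem, 6 of 6 lymphoid, 5 of 5 granule and 4 of 6 megakaryocyte genes, but for 0 of 5 genes of the Flt3 gate, which is therefore named by its rule only. Mitosis-high cells held at least 10 UMIs of 16 mitotic genes per 10000, and S-high cells fewer than that with at least 15 of 20 DNA replication genes. Both together are called cycling. Non-cycling cells held at most 1 mitotic and 5 replication UMIs per 10000. The states are ranges of a score, and 16.0% of kept cells lay within 20% of a limit for cycling.

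Cycling and non-cycling cells differed in 8 of the 9 genes, and the D-type cyclins did not move as 1 group. Ccnd3 was 2.26-fold lower in cycling cells and Ccnd2 slightly lower, while Ccnd1 was higher. Both kinases were higher, and of the inhibitors Cdkn2c and Cdkn1a were higher and Cdkn1b lower. Over all genes 55.2% were called either way in this comparison (7193 of 13042, edgeR adjusted p under 0.05), so the count of 8 is read against a background in which most genes changed. Of the genes called, 3638 were higher and 3555 lower, and scaling by library size alone gave 2818 and 4711 and moved the median of all genes by -0.14 on the log2 scale. Levels below are in CPM, given as the lowest, median and highest of the 7 libraries, and fold changes come from edgeR's quasi-likelihood fit.

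Ccnd3, the D-type cyclin known for its role in lymphoid precursors, was at 256, 369 and 653 in non-cycling cells and at 103, 163 and 182 in cycling ones. The 2 ranges did not overlap, and Ccnd3 was lower in cycling cells in 7 of 7 libraries (log2 fold change -1.18, SE 0.13, edgeR adjusted p 2.23e-06). Ccnd2 stood at 198, 333 and 357 against 174, 253 and 283, lower in 7 of 7 libraries with overlapping ranges (log2 -0.22, SE 0.09, edgeR adjusted p 0.0399). The Ccnd2 difference lost its call in 8 of 14 alternatives, with adjusted p up to 0.509 and the smallest log2 difference at -0.10. Among these were the removals of knockout replicate 1 or 3, or wild-type replicate 2, 3 or 4 (adjusted p 0.0622 to 0.129). Ccnd1, the cyclin most often described as the sensor of growth signals, went the other way, from 7.59, 18.1 and 25.3 to 10.9, 21.1 and 39.2. Its rise was seen in 7 of 7 libraries (log2 0.52, SE 0.13, edgeR adjusted p 0.00234).

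Cdk4, one of the kinases that D-type cyclins switch on, stood at 75.9, 101 and 235 in non-cycling and at 171, 219 and 463 in cycling cells. It was higher in 7 of 7 libraries, by 0.98 to 1.26 in the per-library log2 ratios (fitted log2 1.25, SE 0.09, edgeR adjusted p 9.22e-09). Wild-type replicate 4 and knockout replicate 3, the libraries of list B, were the highest in both states. Cdk6, the other kinase of D-type cyclins, known for its part in the exit of stem cells from rest, was at 231, 601 and 1312 against 490, 1136 and 1727 (log2 0.92, SE 0.12, edgeR adjusted p 7.41e-06). It was higher in 6 of 7 libraries. Knockout replicate 1 was the exception, with 1312 in non-cycling and 1184 in cycling cells.

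Cdkn1b, which holds cells in G1 and G0, fell from 27.2, 35.4 and 54.7 to 19.1, 23.3 and 35.4 (7 of 7 libraries, log2 -0.48, SE 0.11, edgeR adjusted p 0.00124). Cdkn1a, the p53 target among the inhibitors, was at 20.2, 27.9 and 53.1 against 32.7, 37.3 and 61.3 and was higher in 6 of 7 libraries (log2 0.40, SE 0.11, edgeR adjusted p 0.00575). Its call was lost in 2 of 14 alternatives (adjusted p up to 0.144). Cdkn2c rose from 2.04, 8.42 and 10.6 to 8.43, 20.8 and 25.0 (6 of 7 libraries, log2 1.09, SE 0.29, edgeR adjusted p 0.00566). Its non-cycling sums rested on 1 to 80 UMIs per library. Cdkn2d, at 18.4, 31.5 and 62.7 against 24.3, 37.0 and 57.7, did not pass (log2 0.16, interval -0.06 to 0.37, edgeR adjusted p 0.291).

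**Figure D1:**
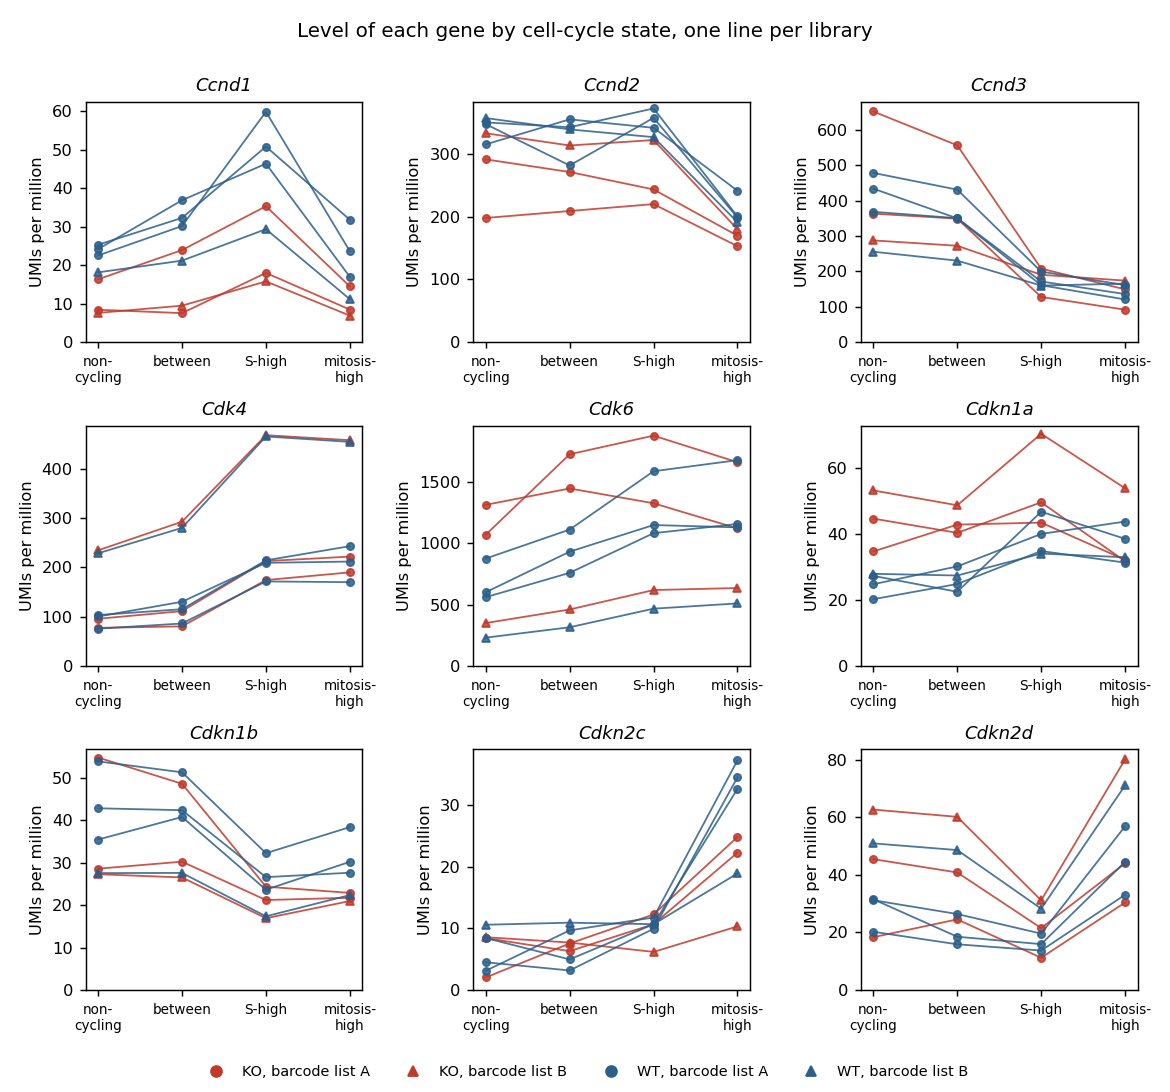
CPM (vertical axis, from 0) of each gene over the 4 ranges of the cycle scores, with 1 line per library, coloured by label and with circles for list A and triangles for list B. Ccnd3 lines fall between the cells between the limits and the S-high cells, Ccnd1 peaks in S-high cells in 7 of 7 libraries, and Cdkn2c and Cdkn2d end higher in mitosis-high than in S-high cells in 7 of 7.

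The cycling cells were then split. Mitosis-high cells differed from S-high cells in 7 of the 9 genes, against 49.3% of all genes called (6298 of 12783). All of the D-type cyclins were lower in the mitosis-high cells, both INK4 inhibitors were higher, and neither kinase passed. Ccnd1 was at 15.8, 35.3 and 59.8 in S-high and at 6.88, 14.5 and 31.8 in mitosis-high cells, lower in 7 of 7 libraries (log2 -1.17, SE 0.08, edgeR adjusted p 3.97e-09). Ccnd2 was at 220, 327 and 372 against 153, 191 and 241 (7 of 7, log2 -0.66, SE 0.06, edgeR adjusted p 4.61e-07). Ccnd3 differed less, with 128, 172 and 208 against 91.8, 149 and 174 and a lower value in 6 of 7 libraries (log2 -0.25, SE 0.05, edgeR adjusted p 0.00132).

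Cdkn2d was the member that stood furthest apart here. Its level was 11.2, 19.6 and 31.2 in S-high and 30.4, 44.5 and 80.1 in mitosis-high cells, a 2.57-fold difference seen in 7 of 7 libraries (log2 1.36, SE 0.06, edgeR adjusted p 1.00e-11). The median of its S-high levels lay below the non-cycling median of 31.5 and the median of its mitosis-high levels above it. Cdkn2c went from 6.18, 10.7 and 12.2 to 10.3, 24.8 and 37.2 (7 of 7, log2 1.19, SE 0.13, edgeR adjusted p 1.04e-05). Cdkn1b was slightly higher (6 of 7, log2 0.23, SE 0.06, edgeR adjusted p 0.00738) and Cdkn1a slightly lower (6 of 7, log2 -0.24, SE 0.07, edgeR adjusted p 0.0131). Both of these small differences lost their call when each cell was thinned to 3000 UMIs (adjusted p 0.453 for Cdkn1b and 0.0866 for Cdkn1a), and Cdkn1a also lost it without knockout replicate 3 (0.0574). Cdk4 had a log2 difference of 0.08 (interval -0.00 to 0.16, edgeR adjusted p 0.098) and Cdk6 of 0.03 (interval -0.06 to 0.11, edgeR adjusted p 0.624).

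Depth differed between these states. The median cell of a library held 3654 to 7100 UMIs in the non-cycling, 7933 to 11760 in the S-high and 13616 to 21691 in the mitosis-high range. With every cell thinned to 3000 UMIs, the 8 calls between cycling and non-cycling cells and the 5 calls of Ccnd1, Ccnd2, Ccnd3, Cdkn2c and Cdkn2d between mitosis-high and S-high cells were still made. The states were set on the counts before thinning, and cells with fewer than 3000 UMIs were left out. Thinning therefore does not test how depth bears on which cells were placed in a state.

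**Figure D2:**
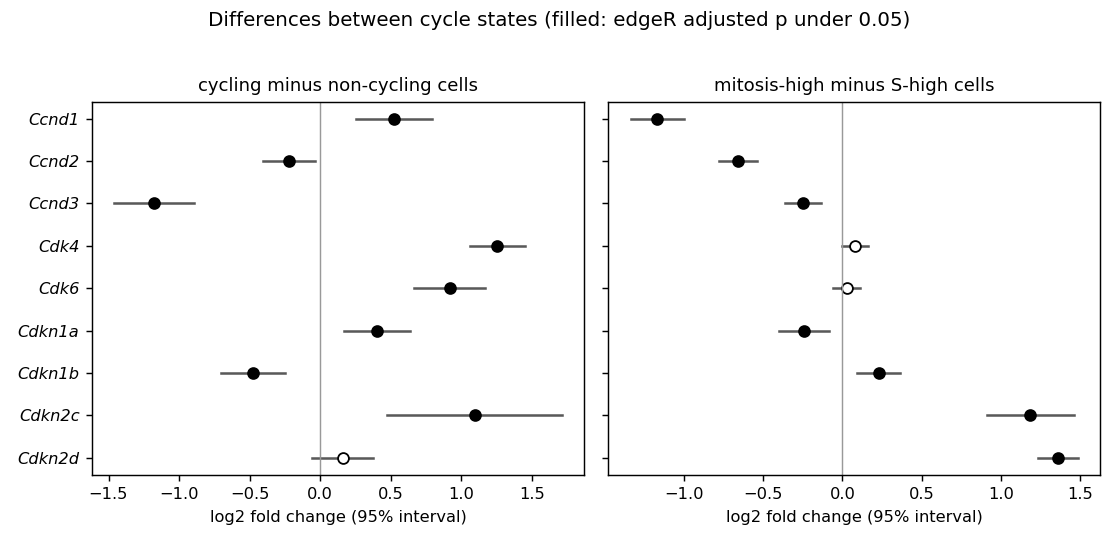
Fitted log2 fold changes (horizontal axis) of the 9 genes with 95% intervals, for cycling minus non-cycling cells on the left and mitosis-high minus S-high cells on the right. Filled points passed an edgeR adjusted p of 0.05, which 8 genes did on the left and 7 on the right, and Cdkn2d is open on the left and furthest to the right at 1.36 on the other side.

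The balance among the D-type cyclins shifted with the cycle. In non-cycling cells Ccnd3 took 54.1% ± 11.04 of the UMIs of the 3 cyclins (SD, n = 7 libraries), Ccnd2 43.6% ± 10.9 and Ccnd1 2.34% ± 0.864. In cycling cells the shares were 36.9% ± 5.55, 57.4% ± 5.08 and 5.68% ± 2.25. The Ccnd3 share was lower and the other shares higher in 7 of 7 libraries, with a two-sided exact sign-flip p of 0.0156 for each, the smallest that 7 libraries allow (0.0260 adjusted over 15 such tests). Between S-high and mitosis-high cells the Ccnd1 share went from 6.82% ± 2.57 to 4.53% ± 2.10 (SD, n = 7; lower in 7 of 7, exact p 0.0156, adjusted 0.0260). The Ccnd3 share was higher again in mitosis-high cells, at 40.8% ± 6.51 against 33.6% ± 5.58 (SD, n = 7; 7 of 7, exact p 0.0156, adjusted 0.0260), and that of Ccnd2 did not pass (54.7% against 59.5%, n = 7, exact p 0.125).

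The other 9 of the 15 tests set the stem gate against other cells. Against the granule gate the Ccnd3 share was higher (49.0% against 31.5%, n = 7) and the shares of Ccnd2 (47.7% against 63.8%) and Ccnd1 (3.20% against 4.75%) lower, each in 7 of 7 libraries with an exact p of 0.0156. The Ccnd1 share was also lower than in the lymphoid gate (6.15%, n = 7, exact p 0.0156) and in ungated cells (4.76%, 6 of 7, exact p 0.0313, adjusted 0.0469). Against ungated cells the shares of Ccnd3 (higher in 4 of 7, exact p 0.203) and Ccnd2 (exact p 0.391) did not pass, nor did they against the lymphoid gate (exact p 0.0938 and 0.281). These shares are counts of 3′ tags and not of protein.

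**Figure D3:**
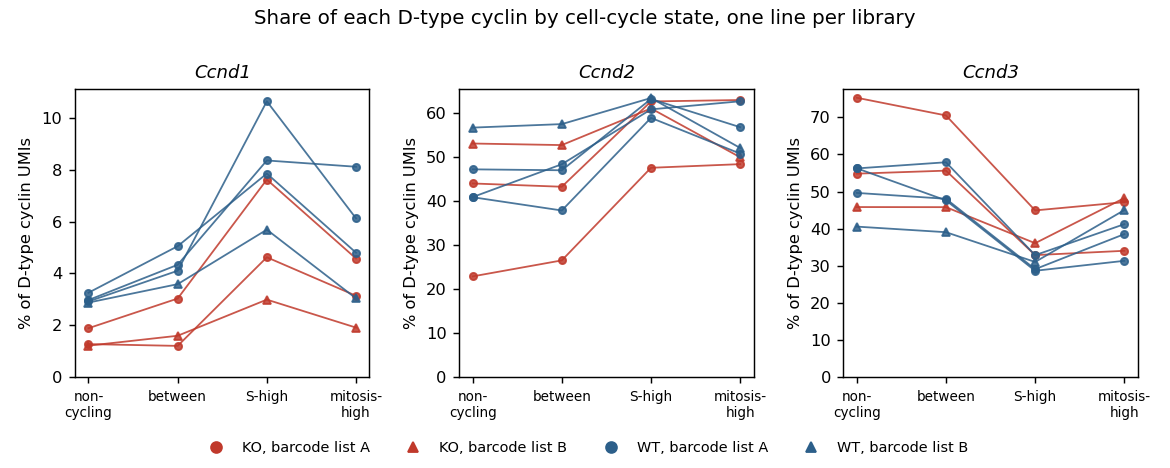
Share of each D-type cyclin in the summed UMIs of the 3 (percent, vertical axis from 0, with a scale of its own in each panel) over the cycle ranges, with 1 line per library, coloured by label, circles for list A and triangles for list B. The Ccnd3 share falls from a mean of 54.1% in non-cycling to 33.6% in S-high cells, and knockout replicate 2 is the highest library for Ccnd3 in the non-cycling range at 75.3%.

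Cells of the stem gate carried more Ccnd3 and Ccnd2 and less Cdk4, Cdk6 and Cdkn1a than ungated cells. In all, 7 of the 9 genes were called, 2 higher and 5 lower, against 40.3% of all genes (4966 of 12334), with 17.9% higher and 22.4% lower. The genes called over the whole table were 2203 higher and 2763 lower, and 2719 and 2210 with library size alone. The stem gate held 128 to 722 cells per library and 4.62% to 15.02% of kept cells. Its median cell was shallower, at 4082.5 to 6829.5 UMIs against 6337.5 to 10206 in ungated cells, and the 0-UMI demands of the gate favour shallow cells.

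Ccnd3 was at 242, 320 and 501 in the stem gate and at 185, 223 and 333 in ungated cells, higher in 7 of 7 libraries (log2 0.49, SE 0.07, edgeR adjusted p 1.27e-07). Ccnd2, at 206, 337 and 417 against 181, 267 and 300, was also higher in 7 of 7 (log2 0.31, SE 0.07, edgeR adjusted p 0.000452). Ccnd1 did not pass, with 7.38, 24.2 and 33.3 against 9.88, 26.7 and 37.0 (log2 -0.06, interval -0.30 to 0.19, edgeR adjusted p 0.738). Cdk6 stood at 156, 550 and 1047 against 420, 1100 and 1815, which was 2.14-fold lower and lower in 7 of 7 libraries (log2 -1.09, SE 0.12, edgeR adjusted p 2.86e-06). Cdk4 was at 69.0, 119 and 264 against 140, 190 and 385 (7 of 7, log2 -0.68, SE 0.07, edgeR adjusted p 3.64e-10).

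Among the inhibitors, Cdkn1a stood at 12.5, 20.5 and 35.1 in the stem gate and 30.8, 42.7 and 59.7 in ungated cells, 1.95-fold lower and lower in 7 of 7 libraries (log2 -0.97, SE 0.11, edgeR adjusted p 6.00e-10). Cdkn2c (log2 -0.39, SE 0.14, edgeR adjusted p 0.0218) and Cdkn1b (log2 -0.30, SE 0.10, edgeR adjusted p 0.0172) were lower in 6 of 7. Cdkn1b lost its call without knockout replicate 3 (adjusted p 0.069), and Cdkn2c without wild-type replicate 1, 3 or 4 (0.0672, 0.0518 and 0.0774). With no demand on Cd48 both lost it too (0.0852 and 0.237). Cdkn1a stayed called there (log2 -0.85, edgeR adjusted p 2.58e-08). Cdkn2d had a log2 difference of 0.01 (interval -0.21 to 0.22, edgeR adjusted p 0.963).

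Against the lymphoid, granule and Flt3 gates the kinases and Cdkn1a were again lower in the stem gate and Ccnd3 higher. The megakaryocyte gate, with as few as 7 cells in a library, was not compared. The lymphoid gate was compared in 7 libraries, with 5 of the 9 genes called against 45.1% of all genes (4547 of 10090). Beside Cdk6 (log2 -1.01), Cdk4 (-0.83), Cdkn1a (-1.02) and Ccnd3 (0.41), Ccnd1 was lower in the stem gate, by 0.64 on the log2 scale (SE 0.13, edgeR adjusted p 0.000223) and in 7 of 7 libraries. The granule gate gave 7 of 9 called against 63.8% (6518 of 10216, 3326 higher and 3192 lower, or 4037 and 2543 with library size alone). Ccnd3 was 2.81-fold higher in the stem gate there (log2 1.49, SE 0.15, edgeR adjusted p 9.64e-08), with 242 to 501 against 77.0 to 150 and no overlap. Cdk6 (-1.41), Cdk4 (-1.13), Cdkn1a (-0.96) and Cdkn2c (-0.59) were lower and Ccnd2 higher (0.42). Ccnd1 (0.38, edgeR adjusted p 0.048) lost its call in 11 of 13 alternatives, among them the removal of knockout replicate 2 or 3 or of any wild-type replicate (adjusted p 0.0508 to 0.2).

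The Flt3 gate was small, and wild-type replicate 1, with 18 cells there, was left out of that fit. In the other 6 libraries 6 of the 9 genes were called against 13.1% of all genes (1161 of 8839): Ccnd2 (log2 0.66) and Ccnd3 (0.37) were higher and Ccnd1 (-0.84), Cdk6 (-0.77), Cdkn1a (-0.73) and Cdk4 (-0.48) lower in the stem gate. Cdk6 kept its call in all 13 alternatives and Ccnd2 in 12. Ccnd3 lost its call without knockout replicate 2 or 3 or wild-type replicate 3 or 4 (adjusted p 0.061, 0.0802, 0.0677 and 0.114), and Cdkn1a without knockout replicate 1 or 3 or wild-type replicate 2 or 4 (0.168, 0.0612, 0.0852 and 0.0904). Ccnd1 lost its call without knockout replicate 1 or 2 or wild-type replicate 3 (0.0913, 0.216 and 0.0682). It moved from -0.84 to -0.54 without knockout replicate 2, the highest of the 7 libraries for Ccnd1 in the Flt3 gate.

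The order of the gates by mean level over the 7 libraries differed from gene to gene. Ccnd3 ran from 344 ± 91.3 in the stem gate through 257 ± 74.2 (Flt3), 252 ± 67.4 (lymphoid), 232 ± 49.99 (ungated) and 193 ± 43.1 (megakaryocyte) to 111 ± 27.2 in the granule gate (SD, n = 7). The last step was larger than the SD of either gate, and the step from the stem to the Flt3 gate larger than the SD of the Flt3 gate alone. The 3 steps between them were smaller than both SDs. These SDs are between libraries, while the fits above compare gates within them. For Ccnd1 the Flt3 gate came first at 56.2 ± 46.4, then the lymphoid gate at 36.8 ± 15.8, ungated cells at 24.6 ± 10.4, the stem gate at 22.4 ± 9.01, the granule gate at 16.9 ± 8.80 and the megakaryocyte gate at 14.4 ± 8.44. The Flt3 means take in wild-type replicate 1, which the fit left out, and the megakaryocyte means a library with 7 cells. In the Flt3 gate Ccnd1 rested on 4 to 47 UMIs per library, with wild-type replicate 1 at 116 CPM (14 UMIs) and knockout replicate 2 at 130 (16 UMIs). The steps from the Flt3 to the lymphoid gate and on to ungated cells were each larger than the SD of the lower of the pair and smaller than that of the higher, and the later steps were smaller than both. Cdkn1a was lowest in the stem gate at 22.8 ± 7.79 and between 29.0 ± 21.0 (megakaryocyte) and 44.2 ± 9.75 (lymphoid) elsewhere.

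**Figure D4:**
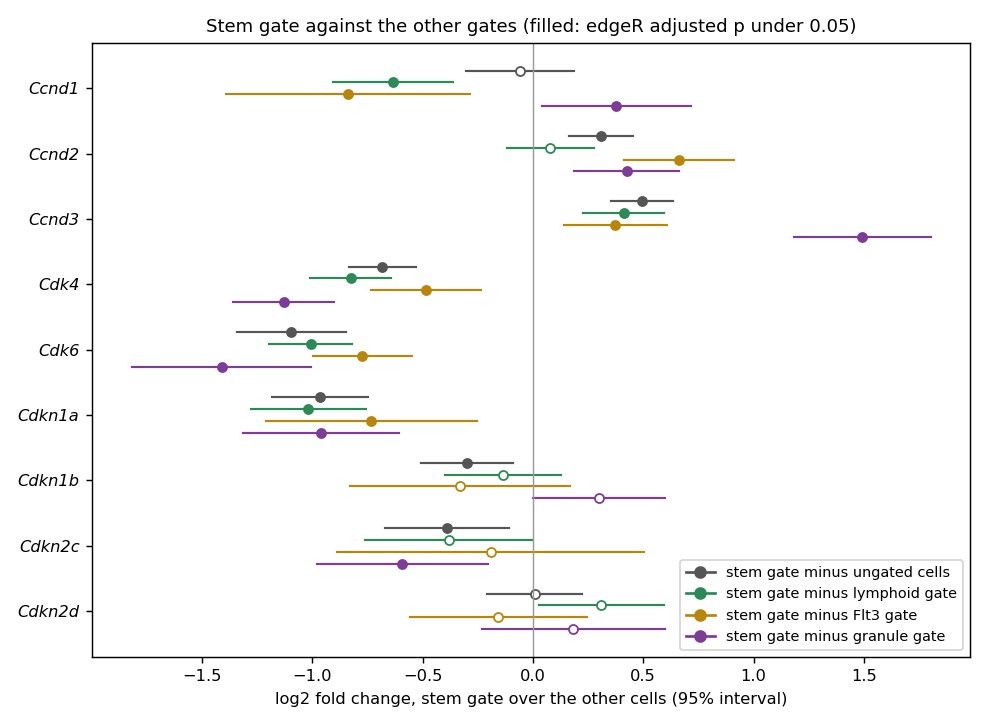
Fitted log2 fold changes (horizontal axis, stem gate over the other cells) with 95% intervals for the 9 genes against ungated cells and the lymphoid, Flt3 and granule gates. Filled points passed an edgeR adjusted p of 0.05; Cdk4, Cdk6 and Cdkn1a lie left of 0 and Ccnd3 right of 0 in all 4 comparisons, and Ccnd3 against the granule gate is the farthest to the right at 1.49.

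The stem gate and the cycle overlap, so each was also looked at within the other. Among non-cycling cells alone, 5 of the 9 genes had enough counts to test, and 2 were called against 9.96% of all genes (547 of 5491). Cdk6 was lower in the stem gate than in ungated cells (121 to 1032 against 244 to 1434, log2 -0.95, SE 0.12, edgeR adjusted p 7.08e-06) and Ccnd2 higher (218 to 481 against 181 to 349, log2 0.45, SE 0.10, edgeR adjusted p 0.000751). Cdk4 (-0.27, edgeR adjusted p 0.147), Ccnd3 (0.12, adjusted p 0.515) and Cdkn2d (0.12, adjusted p 0.763) did not pass in that fit.

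Within the stem gate, 5 genes could be tested between cycling and non-cycling cells and 4 were called, against 30.7% of all genes (1879 of 6111). Cdk6 (log2 0.94, SE 0.10, edgeR adjusted p 2.19e-13) and Cdk4 (0.85, SE 0.12, adjusted p 1.31e-08) were higher in the cycling cells. Ccnd3 (-0.82, SE 0.10, edgeR adjusted p 4.44e-10) and Ccnd2 (-0.70, SE 0.10, adjusted p 6.90e-09) were lower, each in 7 of 7 libraries. Each library gave 34 to 115 cycling and 26 to 197 non-cycling stem-gated cells. In ungated cells the same contrast called 8 of 9 genes, against 52.4% of all genes (6352 of 12111; 3312 higher and 3040 lower, or 2650 and 4020 with library size alone), with Ccnd2 at -0.21. Of those calls, Ccnd2 was lost without wild-type replicate 4 (adjusted p 0.0516) and Cdkn2c without knockout replicate 1 or wild-type replicate 1 or 2 (0.087, 0.0766 and 0.0841). The difference in the cycle contrast between stem-gated and ungated cells was tested as an interaction, which called 0 of the 9 genes against 0.136% of all genes (13 of 9584). Ccnd2 (-0.45, edgeR adjusted p 0.175) and Cdkn1a (-0.84, adjusted p 0.379) were the 2 members with an unadjusted p under 0.05, beside 701 of the 9584 genes. Cdkn1a was not among the genes tested for the cycle within the stem gate. Its level in non-cycling stem-gated cells was 7.26 to 30.2 CPM. The log2 ratio of Cdkn1a in cycling over non-cycling stem-gated cells ran from -1.58 to 2.69 between libraries. DESeq2 also called 0 members in this interaction, and its share over all genes there is not given here.

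Between the labels 1 of the 9 genes was called over all kept cells, against 1.11% of all genes (162 of 14608). Ccnd1 was at 10.9, 21.2 and 10.4 CPM in the knockout-labelled libraries (14.1 ± 6.12, SD, n = 3), from 366 to 828 UMIs. The wild-type-labelled libraries held 36.7, 37.5, 31.9 and 19.8 CPM of it (31.4 ± 8.14, SD, n = 4), from 474 to 1769 UMIs. Knockout replicate 2 lay above wild-type replicate 4, so the groups overlapped, but within each barcode list they did not. With the list as a covariate Ccnd1 was 2.01-fold lower in the knockout-labelled libraries (log2 -1.01, SE 0.19, edgeR adjusted p 0.0396). The log2 ratio of means was -1.14 within list A (2 against 3 libraries) and -0.94 within list B (1 against 1, with no replicate).

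The direction of the Ccnd1 difference was the same in each of 17 alternatives and the call was made in 11. It was lost without wild-type replicate 1, 2 or 3 (adjusted p 0.0961, 0.0716 and 0.111), and with no covariate (0.685). In cycling cells Ccnd1 was again the only member called, against 1.07% of all genes (152 of 14202). It stood there at 11.4, 21.1 and 10.9 against 38.4, 39.2, 31.1 and 19.4 (log2 -0.98, SE 0.18, edgeR adjusted p 0.0442), and the same removals ended this call (0.102, 0.0987 and 0.118). In non-cycling cells the groups did not overlap, at 8.42, 16.3 and 7.59 against 22.5, 25.3, 24.2 and 18.1, but the difference did not pass (log2 -1.19, SE 0.28, edgeR adjusted p 0.205; 8 to 137 UMIs per library). There 0 of 9 genes were called against 0.0596% of all genes (6 of 10063). By DESeq2 0 members were called too, and its share over all genes in these cells is not given here. An unadjusted edgeR p under 0.05 was held by 3 of the members and by 363 of the 10063 genes.

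The make-up of the libraries moved with the label. The granule gate held 20.1% to 40.3% of knockout-labelled cells and 3.20% to 9.16% of wild-type-labelled ones, and the lymphoid gate 2.12% to 3.63% against 10.6% to 14.5%. Ccnd1 was low in the granule gate and high in the lymphoid gate, as given above. Without the granule and megakaryocyte gates the Ccnd1 difference was -0.83 over the remaining cells and no longer called (edgeR adjusted p 0.184). Within single gates it was -0.78 in the stem gate, -0.83 in the lymphoid, -0.84 in the granule gate and -0.79 in ungated cells, and passed in 0 of these 4 (edgeR adjusted p 1.00, 0.418, 1.00 and 0.161; unadjusted p under 0.05 in each). Without knockout replicate 2 the number of members called in ungated cells went from 0 to 1, and the number of all genes called in that setting is not given here. Summed markers of other cells overlapped between the labels, at 13.7 to 4054 CPM against 102.3 to 4252 for neutrophils and 5.04 to 47.1 against 5.20 to 270.2 for erythroid cells, and 0 of the 5 genes of each list were at 0 in every library. The part of cell make-up in the label differences was not tested beyond these values, and fewer cells of a type and less RNA per cell cannot be told apart in sums over all cells. In the stem gate it stood at 7.38, 24.2 and 14.6 in knockout-labelled libraries and at 30.1, 33.3, 26.3 and 20.9 in wild-type-labelled ones, with knockout replicate 2 above wild-type replicate 4. The share of genes called was 0.0104% in the stem gate (1 of 9585), 0.14% in the lymphoid gate (15 of 10733), 0.00808% in the granule gate (1 of 12369) and 0.184% in ungated cells (26 of 14095). Members called by edgeR numbered 0 in each of these 4, with 2, 3, 2 and 6 at an unadjusted p under 0.05. Over all genes 320, 499, 303 and 763 had such a p in edgeR. DESeq2 called 0, 0, 0 and 1 members, and its share over all genes in these gates is not given here.

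The other 8 genes did not pass between the labels in any of the 7 sets of cells. Cdkn1a, which encodes p21, had positive fitted differences in all 7. As log2 ratios of mean CPM, without TMM factors, list A gave negative values in the granule gate (-0.19) and in cycling cells (-0.10). The fitted difference in cycling cells stayed positive in each of 15 alternatives, list A alone among them (lowest log2 0.0165). The granule gate difference changed sign in 3 of 14 alternatives. Its level in non-cycling cells was 44.6, 34.7 and 53.1 in knockout-labelled libraries and 24.8, 20.2, 27.3 and 27.9 in wild-type-labelled ones, without overlap (log2 0.82, SE 0.22, edgeR adjusted p 0.331). In the stem gate it stood at 27.4, 35.1 and 28.5 against 20.5, 12.5, 17.1 and 18.7, again without overlap (log2 0.75, SE 0.25, edgeR adjusted p 1.00). In ungated cells it was at 53.4, 44.5 and 59.7 against 42.7, 32.3, 36.9 and 30.8 (log2 0.58, SE 0.15, edgeR adjusted p 0.277). Over all kept cells the groups overlapped, and the log2 ratio of mean CPM was 0.05 within list A and 0.88 within list B, with knockout replicate 3 the highest library at 57.6. The fitted difference there stayed positive in each of 17 alternatives (lowest log2 0.14).

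Cdk6 had positive differences in 6 of these 7 sets, the largest in non-cycling cells (1312, 1069 and 350 against 601, 875, 561 and 231; log2 0.77, SE 0.24, edgeR adjusted p 0.755). Ccnd2 was lower in the knockout-labelled libraries over all kept cells, at 205, 178 and 268 against 294, 268, 301 and 286, but did not pass (log2 -0.35, SE 0.17, edgeR adjusted p 0.284). The interaction of label and cycle called 0 of 9 genes (15 of 13042 genes in all, 0.115%) and that of label and stem gate 0 of 9 (5 of 12334, 0.0405%), with 1 and 0 members at an unadjusted p under 0.05. Over all genes 1031 and 626 had such a p. DESeq2 called 0 members in both, and its share over all genes in these fits is not given here. The 1 member was Cdk6 (log2 -0.46, edgeR adjusted p 0.287), which was called without knockout replicate 3 or wild-type replicate 4, with adjusted p down to 0.0363. For Ccnd1 the 2 interactions were 0.25 (interval -0.34 to 0.83) and 0.05 (interval -0.43 to 0.54).

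**Figure D5:**
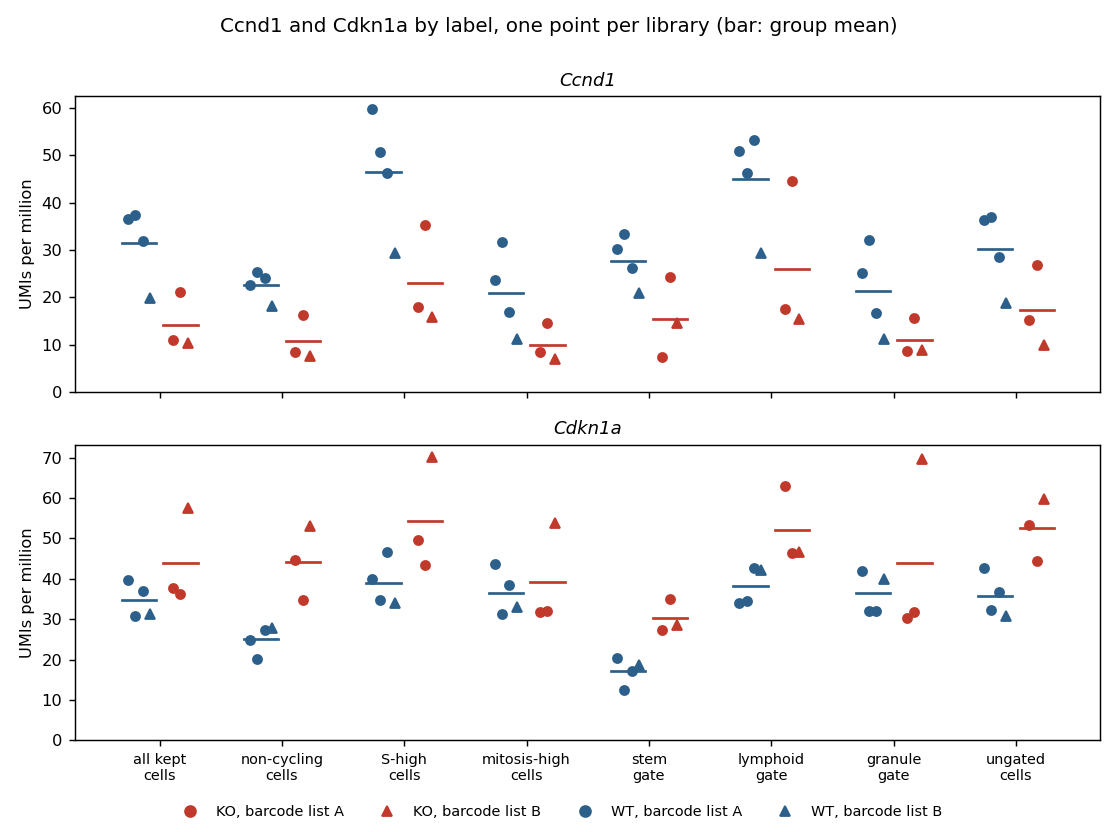
CPM of Ccnd1 and Cdkn1a (vertical axes, from 0) in 8 sets of cells, with 1 point per library, circles for list A, triangles for list B and a bar for the mean of each label group. Ccnd1 means are lower for the knockout label in each set and Cdkn1a means higher, and of the sets shown, the Ccnd1 difference over all kept cells alone passed (S-high and mitosis-high cells were not tested apart).

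Other genes of the G1/S network, 30 in number, were taken from a list fixed for this purpose. Between cycling and non-cycling cells 17 of the 28 tested were higher and 5 lower, beside the 55.2% of all genes called in that contrast, with a median log2 difference of 0.75 beside -0.02 for all genes. The atypical repressors E2f7 (log2 5.597) and E2f8 (4.34) and the kinase subunit Cks1b (2.88) had the smallest p among those higher. Cdkn1c, the third Cip/Kip inhibitor (-1.43), the pocket protein Rbl2 (-0.61) and E2f5 (-0.96) led those lower. The states were split by replication and mitotic genes, so a gene that runs with those is higher by the split itself. In the stem gate against ungated cells, where 40.3% of all genes were called, 4 of 28 were higher, among them Cdkn1c (log2 1.85, SE 0.16, edgeR adjusted p 6.44e-13), Mycn (1.16) and Rbl2 (0.32). There 14 were lower, led by Cks1b (-1.01), E2f8 (-1.32) and the pocket protein Rbl1 (-0.55), and the list's median was -0.21 beside -0.03 for all genes.

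Targets of p53, 18 genes that leave out Cdkn1a, were counted beside it. Between cycling and non-cycling cells 2 of 17 tested were higher (Aen at 0.60 and Bax at 0.65) and 6 lower, led by Trp53inp1 (-1.42), Plk2 (-1.32) and Btg2 (-0.69), so 8 of 17 were called where 55.2% of all genes were. The list's median was -0.37 beside -0.02 for all genes, while Cdkn1a was higher by 0.40. In the stem gate against ungated cells 2 of 15 were higher (Plk2 at 0.70 and Sesn2 at 0.62) and 2 lower (Pmaip1 at -1.09 and Btg2 at -0.62), where 40.3% of all genes were called. Neither count stood above its background. Between the labels 0 genes of either list were called in any set of cells.

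Likeness was described over 104 sums, the gates and cycle states of each library, after centring log2 levels within each library, among 7205 genes of mean level 20 or more. Sums of the same library are not independent of each other, so no test was made. Ccnd3 ran most closely with Zbtb20 (r = 0.92), Mir99ahg (0.90) and Maml2 (0.90), and Cdk4 with Ppia (0.94), Ran (0.93) and Ptma (0.93). Genes close to Cdk6 were Eif4a1 (0.82) and Tgfb1 (0.81), those closest to Cdkn2c were Kif15 (0.76), Mns1 (0.76) and Ccdc34 (0.74), and those closest to Cdkn2d were Hist1h1e (0.67), Arl6ip1 (0.65) and Hist1h4d (0.63). Ccnd2 ran with Tspan3 (0.67), Ier2 (0.67) and Dnajb9 (0.65), Ccnd1 with Cdk2 (0.58), Acaca (0.56) and Mcmbp (0.56), and Cdkn1b with Kmt2e (0.64), 1600020E01Rik (0.61) and Klhl6 (0.59). Cdkn1a stood nearest to Cd48 (0.67), a gene that the stem gate excludes, then Atp8b4 (0.67) and Tm6sf1 (0.66). Among the 9 genes themselves the strongest relation was the opposite course of Ccnd3 and Cdk4 (r = -0.82), followed by Cdk4 with Cdk6 (0.69) and Ccnd3 with Cdkn2c (-0.60). The cyclins were only loosely tied to each other, with 0.39 for Ccnd2 and Ccnd3, 0.29 for Ccnd1 and Ccnd2 and -0.10 for Ccnd1 and Ccnd3.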

How the data were processed

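The authors deposited raw UMI counts per gene and barcode for each library. The submitters' processing notes name Cell Ranger 7.0.0, Seurat 4.4.0 and the build mm10, and the labels' protocols name a 10X Genomics Single Cell 3′ v2 kit. Any filter on cells by the authors is not given in the sources used here. The 9 genes, the other lists, the gates and the barcode list covariate were chosen with earlier results of these data known.

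Counts were summed per library over all kept cells, each gate and each cycle state, with at least 20 cells per library and sum. The sums were tested with edgeR 4.0.16 in R 4.3.3 (TMM factors, filterByExpr, robust quasi-likelihood fit, two-sided, Benjamini-Hochberg adjustment over all genes tested, threshold 0.05). Label fits held the barcode list as a covariate, and fits of states and gates held the library as a block. Levels (CPM) are summed counts per 1000000. Shares of the D-type cyclins were tested with exact sign flips over libraries in Python 3.11.15 with scipy 1.17.1. No doublet caller was run, and leaving out the 5% of cells with most UMIs stood in for it. Comparisons with the lymphoid and granule gates and ungated cells, and of mitosis-high with S-high cells, were added once the Flt3 gate had proved too small. Named genes were the 9, the 3 of each list with the smallest p in each direction among those called, and the 3 genes most like each member, of which 1 is not reported here.

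Other settings were DESeq2 1.42.0, library size alone, no gene filter, list A alone, no covariate, a replicate block, stricter cell and cycle limits, thinning to 3000 UMIs per cell, no demand on Cd48, and each library left out. The fits were checked on simulated data in which 200 genes changed. At a log2 change of 1, 80% of changed genes were recovered for the label over all kept cells, 82% for the label in the stem gate, 94% for cycling against non-cycling cells and 96% for the stem gate against ungated cells. The changed genes were drawn only from those of higher mean count. In the stem gate Ccnd1, Cdkn1a, Cdkn1b and Cdkn2c lay below that limit, so the 82% does not describe them.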

Additional observations from a re-analysis of the deposited data

Results flagged for a closer look

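Of 45 groups of libraries tested for a library far from the others, 5 had one, and chance gives about 1 in 20. Cdkn2c was at 13.6 CPM over all kept cells in wild-type replicate 4, below the other wild-type-labelled libraries, and that library is the only one of its label in list B. The log2 ratio of cycling to non-cycling cells in knockout replicate 1 stood apart for Cdk6 (-0.15, where the other 6 libraries were positive) and for Cdkn1b (-1.23, the lowest of the 7). In the log2 ratio of the stem gate to ungated cells, wild-type replicate 2 was far above the others for Ccnd3 (0.97) and knockout replicate 2 for Cdkn1b (0.27, where the other 6 libraries were negative).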

How the results depend on the processing

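Of 56 called results for single members, 39 kept their call in every alternative, 17 lost it in at least 1 and 0 reversed over 770 alternatives. Of 107 uncalled ones, 49 changed sign and 12 were called in at least 1 alternative. The count of members called between the labels over all kept cells went from 1 to 0 with no covariate, with the replicate block and without the granule and megakaryocyte gates, and ran from 0 to 1 with each library left out. In cycling cells it went from 1 to 0 in the same settings and with library size alone, and again ran from 0 to 1. Members called went from 0 to 1 in the lymphoid gate with no gene filter, and in ungated cells to 1 by DESeq2, to 2 with no gene filter and to between 0 and 1 with a library left out. Against the Flt3 gate 6 members became 3 by DESeq2, 2 in list A alone, 3 with thinning and 3 with no demand on Cd48, and against non-cycling ungated cells 2 became 1 in list A alone. The label by cycle interaction called 0 to 1 members with a library left out. For the lymphoid gate, ungated cells, the Flt3 gate, non-cycling ungated cells and the interaction, the share of all genes called in each of these settings is not given here. Those member counts therefore cannot be read against a background. The cause of these changes was not tested.

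Genes called between the labels over all kept cells (162) numbered 856 by DESeq2, 547 with no gene filter, 362 in list A alone, 0 with no covariate, 1 with the replicate block, 103 with thinning, 41 without the granule and megakaryocyte gates and 16 to 349 with a library left out. In cycling cells (152) they were 878, 691, 452, 0, 1 and 32 in the same settings, thinning apart, with 101 for library size alone and 7 to 439 with a library left out. Thinning lowered mitosis-high against S-high cells from 6298 to 3584 genes, and the stem gate from 4966 to 2879 against ungated cells, from 4547 to 2234 against the lymphoid gate and from 6518 to 3568 against the granule gate. The label by cycle interaction (15 genes, 5 higher and 10 lower) gave 33 with library size alone (5 and 28), and the gate by cycle interaction (7 and 6) gave 18 and 3.

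The replicate numbers did not pair all of the samples. Same-numbered libraries deviated together with correlations of 0.53, 0.72 and -0.36. Knockout replicates 1 and 2 each ran closest with the wild-type library of the same number. Knockout replicate 3 ran closest with wild-type replicate 4 (0.89). Whether the numbers pair libraries within list A was not tested further. With the replicate block Ccnd1 was at -1.20 over all kept cells (edgeR adjusted p 0.179) and -1.17 in cycling cells (0.13). Label differences, the cycle contrast and the planned interactions in the Flt3 gate were not run, since 1 library held 18 cells there, and the stem gate against the Flt3 gate in non-cycling cells alone could not be fitted. Low counts kept Ccnd1, Cdkn1a, Cdkn1b and Cdkn2c out of the fits of non-cycling against other cells within the stem gate and of the stem gate within non-cycling cells.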
